A study of Homo sapiens with 15 samples.

Results

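The comparison described here sets 2 doses of sodium butyrate against each other in palmitate-treated HepG2 cells, a human line derived from a hepatocellular carcinoma. The 3 libraries of the medium dose (1 mM) were compared with the 3 of the low dose (0.5 mM), which makes 6 of the 15 libraries of the series. All genes in the count table that passed a filter on low counts were tested, 20309 of 39133. The series holds 5 groups of 3 libraries, which its text calls biological replicates: untreated control, palmitate alone, and 3 palmitate groups that also received butyrate, named low (0.5 mM), medium (1 mM) and high (1.5 mM). Palmitate is the series' means of inducing insulin resistance, and the labels give it as 200 mM in every palmitate group, a unit that could not be checked here.

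All groups are labelled wild type, as 1 batch, and as harvested at 48 h. Library names of both doses give 24 h of palmitate and 24 h of butyrate, so low and medium butyrate differ by dose alone as far as the labels say. No group received butyrate without palmitate, and the cells are 1 tumour line, so a dose difference here is one between palmitate-treated cells. Whether palmitate stayed on while butyrate was given is not clear from the labels, which give 48 h for palmitate alone. What the p-values weigh is the spread among libraries of a group.

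Butyrate is a short-chain fatty acid made by gut bacteria and carried to the liver by the portal vein. It inhibits class I and class II histone deacetylases, enzymes that remove acetyl groups from histones, and it is also burned as fuel after activation to butyryl-CoA. In cultured tumour cells such inhibitors are known for arresting the cell cycle, raising the cyclin-dependent kinase inhibitor p21 and switching on genes of other tissues.

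The libraries of both doses were as alike across doses as within a dose. Total counts were 44557148, 35349827 and 59980853 in low and 39344307, 50162494 and 43687829 in medium butyrate. The chi-square per gene between 2 libraries, a measure that grows with the difference between their counts, ran from 7.31 to 18.9 within low, from 6.75 to 24.0 within medium and from 7.07 to 19.0 between them. Between medium and high libraries it ran from 148 to 185. No pair of libraries agreed within sampling noise, which would give a value near 1 for independent counts and a higher one where both mates of a read pair are counted.

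**Figure D1:**
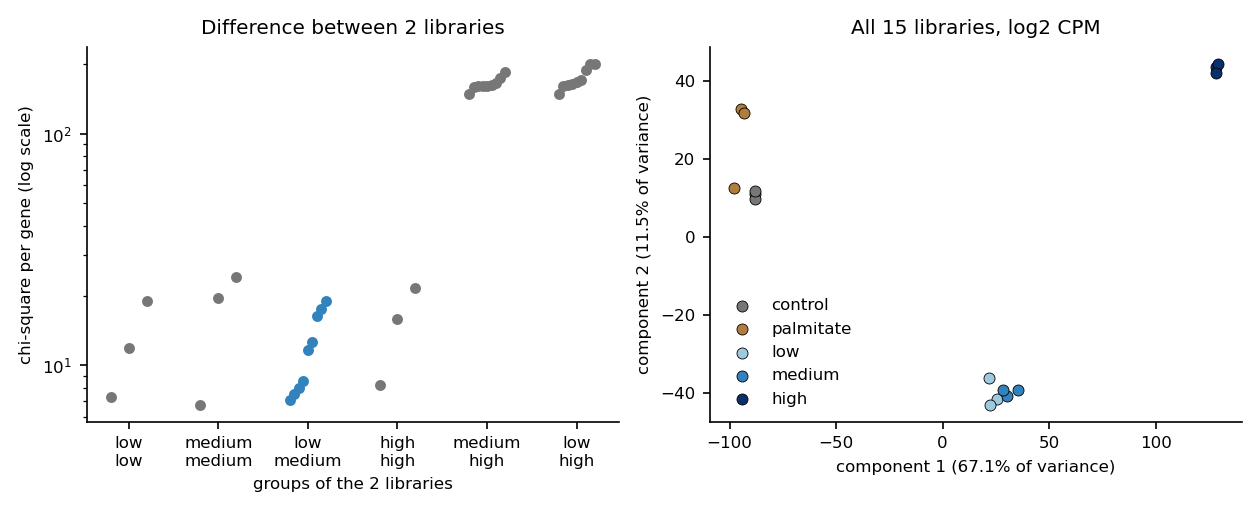
Left, chi-square per gene (log scale) for each pair of libraries, by the groups the 2 libraries come from. The 9 pairs of a low and a medium library lie from 7.07 to 19.0, among the pairs within a dose, while pairs that involve a high and a lower dose start at 148. Right, the first 2 principal components of log2 CPM in all 15 libraries. Low and medium libraries form 1 cloud and high libraries stand apart.

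On the first principal component of all 15 libraries (67.1% of the variance) low libraries lay at 25.7, 22.3 and 21.8 and medium libraries at 30.3, 35.6 and 28.4. The doses did not overlap on this axis, and the high libraries lay from 128 to 129. In a component analysis of the 6 libraries alone (24.0% of the variance on the first component), low libraries lay at -8.20, 41.8 and 3.03 and medium libraries at -35.7, -3.48 and 2.54, so the doses overlapped there. Mitochondrially encoded transcripts made up 10.3% ± 0.671 of counts in low and 10.0% ± 1.10 in medium butyrate (SD, n = 3; exact two-sided permutation test, p = 0.9). Replication-dependent histone genes took 0.00490% ± 0.000216 and 0.00537% ± 0.000287 (p = 0.1 in the same exact test, the smallest that 3 against 3 can give).

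Markers of the line were in place at both doses. The summed level of 10 hepatocyte markers, albumin and apolipoproteins among them, ran from 32920 to 35810 CPM (counts scaled to library size) in low and from 33860 to 35100 CPM in medium libraries. Of 4 immune markers, PTPRC and CD3E were at or near 0, as were the stromal markers DCN and LUM (at most 0.0560 CPM). The other immune markers were not all near 0. The summed level of 4 stromal markers was 0.316 to 0.868 CPM in low and 0.610 to 0.884 CPM in medium libraries, and that of 3 endothelial markers 9.90 to 11.4 and 9.49 to 11.6 CPM. In bulk RNA, fewer cells of a type and less RNA per cell cannot be told apart.

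No gene differed between 1 and 0.5 mM butyrate beyond the threshold: 0 of 20309 genes (0%) passed an adjusted p of 0.05 in the edgeR quasi-likelihood test. Every adjusted p was 1. The smallest unadjusted p was 0.000203, whereas a lone gene would have needed 2.46e-06 to be called. At an unadjusted p under 0.05 stood 481 genes (2.37%), 301 higher (1.48%) and 180 lower (0.886%) in medium butyrate, and 71 genes stood under 0.01. With no difference in any gene, 5% would be expected there, so the share is below that of chance. The median unadjusted p was 0.579 in edgeR, so the test ran conservative. The share depended on the fit, from 1.79% with DESeq2 on the 6 libraries to 5.475% in voom with quality weights. DESeq2 also called 0 genes, with 487 at an unadjusted p under 0.05. The libraries of both doses did not overlap for 1656 genes (8.15%), 880 (4.33%) with all medium libraries above and 776 (3.82%) below. Of the 20 splits of 6 libraries into 3 and 3, a share of 0.1 gives such a separation with no dose difference. The observed share is below that, so a lack of overlap in a gene is not by itself evidence of a dose difference.

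The same model called many genes over the next step of equal size. Between 1 and 1.5 mM, 11285 genes were called (55.6%), 5476 higher and 5809 lower in high butyrate, and 1618 of these calls were of changes under 0.32 on the log2 scale. The smallest change called in that step was 0.14 on the log2 scale. Typical 95% intervals were as wide in both steps, with a median half-width of 0.28 on the log2 scale in each. For scale, low butyrate against palmitate alone, which shares the low libraries, gave 10093 calls (49.7%).

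The size of change that these data could show depended on the level of the gene, its mean log2 CPM over all 15 libraries. Over all genes the median half-width of the 95% interval was 0.28 on the log2 scale, which is 1.21-fold. It was 0.15 (1.11-fold) for the 5574 genes over a level of 5 on the log2 CPM scale and 0.21 (1.16-fold) for the 5665 genes from 2 to 5. It was 0.46 (1.38-fold) for the 2881 genes from 0 to 2 and 1.09 (2.13-fold) for the 6180 genes under 0.

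Reaching the threshold asks for more than an interval that excludes 0, since 20309 genes were tested. A lone gene with the median standard error of its level would have been called at 1.36-fold over a level of 5, at 1.54-fold from 2 to 5, at 2.59-fold from 0 to 2 and at 9.49-fold under 0. Had 203 genes changed together, 1.23-fold would have sufficed over a level of 5 and 1.33-fold from 2 to 5. A gene that changed by less could have gone unseen at this depth and with 3 libraries per dose. These limits also rest on a spread estimated from all 15 libraries. Pairs of palmitate libraries had the widest differences within a group, with a chi-square per gene up to 62.6. In the 6 libraries alone, with 18214 genes tested, the median half-width was 0.22 on the log2 scale and 68.5% of intervals lay inside 1.5-fold. Without the palmitate group these values were 0.26 and 62.2%.

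**Figure D2:**
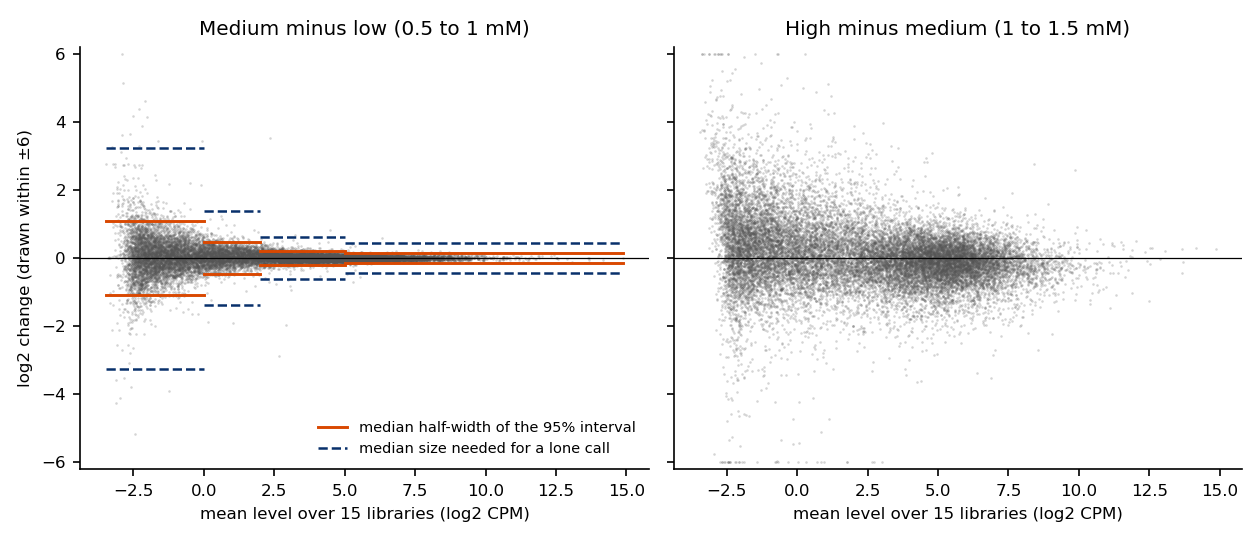
Fitted log2 change of each of 20309 genes (points, drawn within ±6) against its mean level in log2 CPM, for medium minus low butyrate (left) and high minus medium butyrate (right). Solid lines give the median half-width of the 95% interval by level, 0.15 at the highest and 1.09 at the lowest levels, and dashed lines the change at which a lone gene would be called. Over a level of 2 the points of the left plot stay mostly inside the solid lines, while those of the right plot spread over several log2 units.

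Read the other way, the intervals bound most genes closely. The 95% interval of 9169 of 20300 genes (45.2%) lay wholly within 0.32 of 0 on the log2 scale, that of 12301 (60.6%) inside 1.5-fold and that of 15020 (74.0%) inside 2-fold. Over a level of 5, 96.2% of genes were within 0.32, and from 2 to 5, 97.3% were inside 1.5-fold. Of the genes under a level of 0, 18.6% were inside 2-fold, so little can be said of them. Of the 3764 genes called at 2-fold or more over the next step, 2189 (58.2%) had a medium against low interval inside 2-fold.

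The genes nearest to a call are described because none was called. No overlap of the 6 libraries was a condition for naming them in either direction, so their separation is not a finding. Of the 8 with the smallest p among those with no overlap and higher in medium butyrate, several belong to genes that are silent or low without butyrate. COL26A1, which encodes a collagen chain (ENSG00000160963, chromosome 7, 101362820 to 101559024, GRCh38), stood at 1.47, 1.09 and 1.80 CPM in low and at 2.17, 2.93 and 2.42 CPM in medium butyrate. All medium libraries were above all low ones, by 0.77 on the log2 scale (SE 0.198, unadjusted p = 0.000728, adjusted p = 1 in edgeR). Control libraries held 0.0479 ± 0.0436 CPM and high libraries 14.7 ± 1.01 CPM (SD, n = 3), and the step from medium to high was a rise of 2.54 (adjusted p = 1.09e-11 in edgeR).

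CYP4F22, a cytochrome P450 that hydroxylates very long fatty acids in skin, was at 0 CPM in all control and palmitate libraries. It stood at 0.734, 0.336 and 0.615 CPM in low, at 1.43, 1.30 and 1.05 CPM in medium and at 3.81 ± 0.190 CPM in high libraries. The low and medium libraries did not overlap, with a difference of 1.13 on the log2 scale (95% interval 0.55 to 1.72, unadjusted p = 0.000668, adjusted p = 1 in edgeR). RUNDC3A had a similar order, from 0.402 ± 0.0901 CPM in low to 0.797 ± 0.198 CPM in medium and 6.83 ± 0.582 CPM in high butyrate.

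SPRYD3 (chromosome 12, 53064316 to 53079420) stood at 28.2, 28.7 and 27.96 CPM in low and at 34.5, 32.3 and 33.4 CPM in medium butyrate, so the gap between doses was wider than the spread of either. The difference was 0.24 on the log2 scale, or 1.18-fold (95% interval 0.10 to 0.38, unadjusted p = 0.00151, adjusted p = 1 in edgeR). Control libraries held 25.3 ± 0.711 CPM, and the gene rose by 0.88 to 61.5 ± 3.29 CPM in high butyrate. CCDC159 stood at 2.36 ± 0.0223 CPM in low, 3.38 ± 0.227 CPM in medium and 4.83 ± 0.627 CPM in high butyrate. The non-coding transcript UICLM, at 1.12 ± 0.174 and 2.05 ± 0.125 CPM, and the antisense gene ENSG00000250365, at 0.934 ± 0.0348 and 1.72 ± 0.317 CPM, complete the 8 together with EIF3C below. Whether the counting used strand is not given in the sources used here, so the antisense gene's reads cannot be told from its partner's.

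Of the 8 genes lower in medium butyrate, again without a call, FANCM, PCYT1B and FASTKD2 are described first. FANCM, a DNA translocase of the Fanconi anaemia repair pathway (ENSG00000187790, chromosome 14, 45135940 to 45200890), stood at 13.7, 13.7 and 13.4 CPM in low and at 11.6, 11.6 and 11.3 CPM in medium butyrate. The 3 medium libraries were below all low ones, by -0.24 on the log2 scale (95% interval -0.40 to -0.07, unadjusted p = 0.00639, adjusted p = 1 in edgeR). It stood at 16.9 ± 0.840 CPM in control and 7.46 ± 0.0252 CPM in high butyrate.

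PCYT1B, an enzyme that makes CDP-choline for phosphatidylcholine, stood at 12.2, 11.2 and 13.5 CPM in low and at 10.1, 9.77 and 10.2 CPM in medium butyrate. The difference was -0.30 on the log2 scale (SE 0.0895, unadjusted p = 0.00264, adjusted p = 1 in edgeR), and the gene went from 40.1 ± 2.64 CPM in control to 3.30 ± 0.417 CPM in high butyrate. FASTKD2, a mitochondrial RNA-binding protein, stood at 41.1 ± 0.992 CPM in low and 36.0 ± 2.11 CPM in medium butyrate, against 52.4 ± 2.06 in control and 23.4 ± 0.569 in high libraries. For each of FANCM, PCYT1B and FASTKD2 the medium mean lay between the low and the high mean, which was not so for the other genes of the 8.

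Not all genes near a call were ordered by dose. TMEM185A stood at 3.96 ± 0.246 CPM in low, 2.90 ± 0.276 CPM in medium and 4.83 ± 0.358 CPM in high butyrate, and the step from medium to high was a rise of 0.74 (adjusted p = 6.40e-05 in edgeR). CRAMP1, C15orf61, the pseudogene WASH3P and ENSG00000275464 were the others among the 8 lower genes. ENSG00000275464, a protein-coding gene on chromosome 21, had the smallest p of all, with 9.03 to 10.85 CPM in low and 6.11 to 6.56 CPM in medium libraries. Its longest GENCODE 29 transcript shares 86.6% of its 100-base windows with another gene, and control libraries held 8.44 ± 2.19 CPM, between both doses.

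EIF3C was the most abundant of these 16 genes, and it was called in 4 of the alternative fits. It encodes a subunit of translation initiation factor 3, which brings messenger RNA to the small ribosomal subunit, and has a near-identical neighbour on the same chromosome, EIF3CL. EIF3C (ENSG00000184110, chromosome 16, 28688558 to 28735730, plus strand) and EIF3CL (ENSG00000205609, chromosome 16, 28379579 to 28403879, minus strand) have longest coding sequences of 2739 and 2742 bases in GENCODE 29. All 2739 aligned bases are identical. The stretches below are the only place where both differ, from coding base 847, and are shown because reads from elsewhere in the coding sequence cannot tell the genes apart. Capitals mark the 3 bases that only the EIF3CL transcript holds.
EIF3C: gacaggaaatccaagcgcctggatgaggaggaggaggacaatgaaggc
EIF3CL: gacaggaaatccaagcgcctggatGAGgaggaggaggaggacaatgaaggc

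EIF3C stood at 64.7, 71.8 and 66.4 CPM in low and at 99.6, 104 and 100.3 CPM in medium butyrate. The medium libraries were all far above the low ones, by 0.58 on the log2 scale or 1.50-fold (95% interval 0.29 to 0.88, unadjusted p = 0.000886, adjusted p = 1 in edgeR). Control and high libraries spread more than either dose. Control libraries stood at 77.0, 99.9 and 62.7 CPM and high libraries at 89.6, 77.5 and 104 CPM. The low values lay inside the range of the control libraries, and the medium values inside that of the high libraries.

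EIF3CL stood at 9.09, 33.9 and 15.9 CPM in low and at 16.3, 10.9 and 13.2 CPM in medium butyrate, with full overlap. The sum of both genes was 73.7, 106 and 82.3 CPM in low and 116, 115 and 114 CPM in medium butyrate. The summed levels still did not overlap, and low replicate 2 was the nearest to the medium libraries. In control the sum was 103 ± 6.65 CPM (SD, n = 3). In a fit of the 6 libraries alone, whose spread leaves out control and high libraries, EIF3C was called (log2 difference 0.58, adjusted p = 9.57e-05 in edgeR). It was also called without a filter on low counts (adjusted p = 2.97e-05 in edgeR), in the 6 libraries with the replicate number as a block (3.33e-09 in edgeR) and by DESeq2 on the 6 libraries (6.40e-15), a fit added after seeing the data.

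Shared sequence also marked the large differences among genes over a level of 2. Only 11 such genes differed by more than 1.5-fold in either direction, and for 10 of them at least 20% of the 100-base windows of the longest transcript occur in another gene, against 4.61% of all 11214 genes over that level. These 11 were picked after their values were seen. BOLA2B stood at 36.3, 5.01 and 4.24 CPM in low and at 3.78, 3.68 and 4.23 CPM in medium butyrate, so 1 library made the difference. U2AF1 and its copy U2AF1L5, which encode a splicing factor that reads the 3' splice site, stood at 33.2 and 3.31 CPM in low replicate 1 and at 3.33 and 22.5 CPM in low replicate 2, within 1 dose. H19, an imprinted non-coding RNA, was the 1 gene with no shared window, at 27.5, 31.5 and 21.8 CPM in low and 27.9, 38.4 and 75.4 CPM in medium libraries, where medium replicate 3 alone stood apart.

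The 29 gene lists were examined by role, 743 genes in all. They were written with earlier results of these data known, so their shares of calls are description and not independent evidence. None of the 743 was called (background 0%), 13 stood at an unadjusted p under 0.05 (1.75%, against 2.37% of all genes), and the interval of 651 (87.6%) lay inside 1.5-fold. List medians ran close to 0, beside a median of 0.00 on the log2 scale over all genes.

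Genes of histone acetylation, the direct target of butyrate, were close to level. Of 31 histone deacetylases and corepressors, 11 were higher and 20 lower in medium butyrate, with a median of -0.02 and none called. HDAC1, a class I deacetylase, stood at 172, 162 and 159.6 CPM in low and at 161, 163 and 168 CPM in medium butyrate. Its libraries overlapped, and the 95% interval of the log2 difference ran from -0.12 to 0.12. HDAC7, of class II, stood at 15.1 ± 0.818 and 13.9 ± 0.516 CPM, and fell by 1.05 on the log2 scale at the step to high butyrate (adjusted p = 6.29e-11 in edgeR).

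Of 27 genes listed for their response to histone deacetylase inhibitors, 20 were higher and 7 lower in medium butyrate, with a median of 0.06 and none called. Over the next step 22 of the 27 were called higher and 2 lower, against 27.0% and 28.6% of all genes, with a median of 0.72. TXNIP, an arrestin that limits glucose uptake (ENSG00000265972, chromosome 1, 145992435 to 145996600), stood at 151, 132 and 158 CPM in low and at 173, 157 and 180.5 CPM in medium butyrate. The lowest medium library was below the highest low one, and the difference was 0.21 (95% interval 0.04 to 0.38, unadjusted p = 0.0189, adjusted p = 1 in edgeR). High libraries held 1164 ± 70.4 CPM. CDKN1A, which encodes p21, stood at 104 ± 4.98 CPM in low, 111 ± 3.49 CPM in medium and 292 ± 8.71 CPM in high butyrate.

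Cell cycle and replication genes were mostly slightly lower in medium butyrate. Of 50 tested, 45 were lower and 5 higher, with a median of -0.07 on the log2 scale, 2 at an unadjusted p under 0.05 and none called. The median level relative to the mean of the 6 libraries was 0.03, 0.04 and 0.05 in low and -0.02, -0.07 and -0.02 in medium libraries, which did not overlap. Members of one list move together, so 45 of 50 is not 45 separate observations. MCM6, a subunit of the replicative helicase, stood at 81.7, 83.0 and 87.2 CPM in low and at 77.5, 74.1 and 78.3 CPM in medium butyrate. Its libraries did not overlap, and its log2 difference of -0.13 (unadjusted p = 0.0381, adjusted p = 1 in edgeR) compares with a fall of 1.90 at the next step.

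Cyclin A2, encoded by CCNA2 and needed for S phase, stood at 75.3 ± 1.49 CPM in low and 70.8 ± 1.11 CPM in medium butyrate (SD, n = 3). Its 95% interval ran from -0.21 to 0.03. Over the step to high butyrate it fell by 1.92, to 18.8 ± 0.301 CPM. In that step 47 of the 50 genes of the list were called lower and 2 higher, against 28.6% and 27.0% of all genes.

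Lipid genes, which respond to both palmitate and butyrate in liver cells, were level between the doses. FASN, which encodes fatty acid synthase, stood at 5085, 4765 and 4705 CPM in low and at 5166, 5123 and 4931 CPM in medium butyrate. The doses overlapped, with a 95% interval from -0.20 to 0.33, and both lay far above the 1947 ± 111 CPM of control. Of the 30 genes of fatty acid and triglyceride synthesis 16 were higher and 14 lower, with a median of 0.01. SREBF1, which encodes an activator of these genes, stood at 172 ± 3.47 and 169.7 ± 5.69 CPM and rose by 1.03 at the next step.

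Most cholesterol genes were slightly higher in medium butyrate, and most fell at the next step. Of 25 tested, 22 were higher and 3 lower in medium butyrate by sign, with a median of 0.06 and none called. Over the next step 20 were called lower and 3 higher, with a median of -0.57. Of all genes 28.6% were called lower and 27.0% higher in that step. MVK, mevalonate kinase, stood at 67.3, 64.5 and 64.3 CPM in low and 72.0, 74.6 and 67.6 CPM in medium butyrate, without overlap (log2 difference 0.13, unadjusted p = 0.0481, adjusted p = 1 in edgeR). The list medians per library overlapped, however, at 0.00, -0.02 and -0.06 in low and 0.06, 0.01 and -0.01 in medium libraries. Of the lipid droplet and lipoprotein genes 19 of 25 were higher, with a median of 0.04. Perilipin 5 (PLIN5), a droplet coat protein, stood at 2.30 ± 0.154 CPM in low, 3.10 ± 0.240 CPM in medium and 23.7 ± 2.21 CPM in high butyrate. PLIN1 stood at 0.132 ± 0.103 and 0.412 ± 0.0859 CPM, a level at which the intervals are wide (0.44 to 2.56 on the log2 scale).

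Uptake and burning of fatty acids had no called gene. SLC16A1, a carrier of butyrate and lactate, stood at 251 ± 4.06 CPM in low and 244 ± 4.93 CPM in medium butyrate, with an interval from -0.16 to 0.08. CPT1A, which admits long fatty acids to mitochondria, stood at 88.5 ± 4.26 and 92.3 ± 5.09 CPM, with an interval from -0.08 to 0.20. ACSM1, a mitochondrial acyl-CoA synthetase, stood at 8.79 ± 0.296 and 9.37 ± 0.490 CPM. Of the 28 genes of fatty acid oxidation and ketone bodies, 17 were higher and 11 lower, with a median of 0.03.

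Insulin signalling, the question that the series poses, was level between the doses. Of 44 genes 18 were higher and 26 lower, with a median of -0.01, and 41 had an interval inside 1.5-fold. The insulin receptor gene INSR stood at 59.97, 58.2 and 55.0 CPM in low and at 65.3, 60.7 and 55.4 CPM in medium butyrate, with overlap. Its adaptor IRS1 stood at 148 ± 3.97 and 144 ± 5.86 CPM. IGFBP1, which binds insulin-like growth factors outside the cell, spread widely within each dose, at 401, 391 and 242 CPM in low and 462, 439 and 256 CPM in medium libraries, and its interval ran from -0.44 to 0.76. TRIB3, an inhibitor of AKT, stood at 93.2 ± 4.44 and 91.7 ± 6.99 CPM.

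Glucose genes were more often higher than lower, 27 against 8 of 35, with a median of 0.03 that turned to -0.02 without low replicate 3 and to -0.01 without medium replicate 1. HK1, a hexokinase that is low in liver, stood at 27.3, 24.4 and 20.6 CPM in low and at 30.5, 28.9 and 26.7 CPM in medium butyrate, with slight overlap (log2 difference 0.26, unadjusted p = 0.0628, adjusted p = 1 in edgeR). G6PC1, the last enzyme of glucose release, stood at 0.507 ± 0.108 and 0.846 ± 0.186 CPM. PCK1, which commits carbon to gluconeogenesis, stood at 1.82 ± 0.312 and 1.84 ± 0.427 CPM.

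Of 42 cytosolic ribosomal protein genes 40 were higher in medium butyrate, with a median of 0.05. Their median level per library was 0.04, -0.06 and -0.06 in low and 0.04, 0.11 and -0.09 in medium libraries. Medium replicate 3 was thus the lowest of all 6, and the doses overlapped. The share of mitochondrial transcripts was highest in medium replicate 3 (11.3%) and in low replicate 1 (10.85%); its part in this list's values was not tested.

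Secreted hepatocyte products had 18 genes higher and 15 lower, with a median of 0.00. Albumin (ALB) stood at 7246, 6619 and 6854 CPM in low and at 7114, 6954 and 6807 CPM in medium butyrate, with overlap and an interval from -0.19 to 0.21. At the next step it fell (adjusted p = 7.12e-11 in edgeR) to 2915 ± 76.5 CPM. Of 17 neuronal genes tested 11 were higher, and SYP, which encodes the synaptic vesicle protein synaptophysin, had the smallest p of any list member. It stood at 10.8, 10.3 and 9.60 CPM in low and at 11.6, 12.7 and 13.1 CPM in medium butyrate, without overlap (log2 difference 0.29, 95% interval 0.11 to 0.46, unadjusted p = 0.00276, adjusted p = 1 in edgeR). Control libraries held 2.25 ± 0.166 CPM and high libraries 40.5 ± 0.995 CPM.

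**Figure D3:**
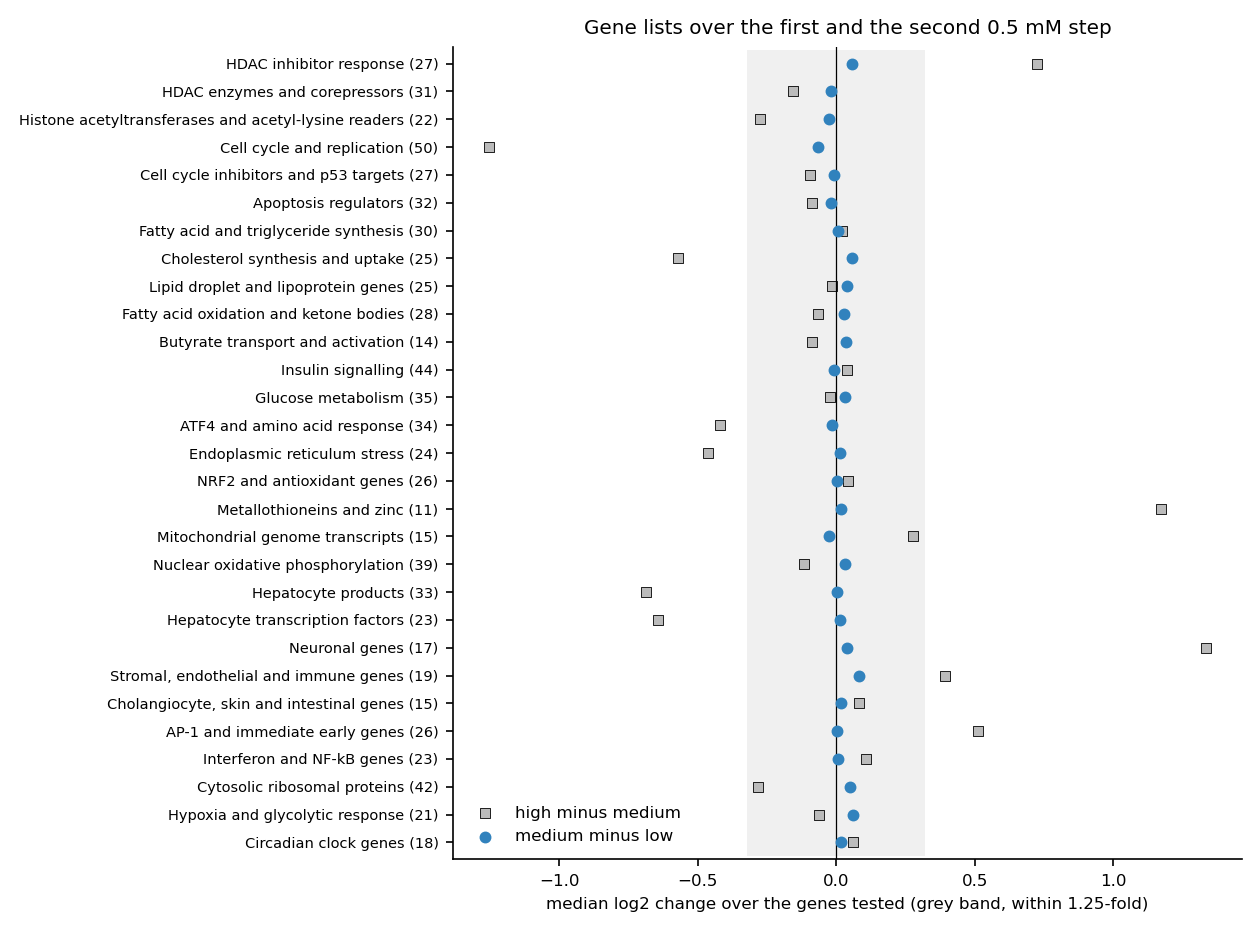
Median log2 change of each of 29 gene lists (number of genes tested in brackets) between low and medium butyrate (circles) and between medium and high butyrate (squares). The grey band spans 0.32 on either side of 0. All circles lie inside the band, from -0.07 for cell cycle genes to 0.08 for stromal, endothelial and immune genes, whereas squares reach 1.34.

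The remaining lists had medians from -0.03 to 0.08. Among 22 acetyltransferases and acetyl-lysine readers 15 were lower; BRPF3, a subunit of an acetyltransferase complex, stood at 24.5 ± 1.05 CPM in low and 21.5 ± 1.60 CPM in medium butyrate. Endoplasmic reticulum stress genes split 14 to 10, ATF4 and amino acid genes 14 to 20, and NRF2 and antioxidant genes 14 to 12 between higher and lower. HERPUD1, which takes part in degrading misfolded proteins, stood at 128, 125 and 131 CPM in low and at 139, 136 and 141 CPM in medium butyrate, without overlap. Of 11 metallothionein and zinc genes 6 were higher, and the metallothionein MT1G stood at 57.1 ± 5.59 and 57.9 ± 9.79 CPM, against 139 ± 16.7 CPM in high butyrate. Stromal, endothelial and immune genes, markers of cells that a pure line should lack, had 15 of 19 higher with a median of 0.08.

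Whether the second 0.5 mM step differed from the first was tested directly, as the high minus medium change less the medium minus low change. For 6438 genes (31.7%) the steps differed at an adjusted p under 0.05, 2650 with the second step more upward and 3788 more downward. On deposited FPKM values with a pseudocount of 1 the split turned over, to 4169 and 3056. Among the 29 lists, 45 of 50 cell cycle genes and 18 of 33 hepatocyte products were called more downward, against 18.7% of all genes. Called more upward were 16 of 27 genes of the histone deacetylase inhibitor list and 10 of 17 neuronal genes, against 13.0% of all genes. Of 28 neuronal names listed, only these 17 were tested. The filter used all 5 groups, so a gene present only in high butyrate could pass it, which favours a more upward second step.

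Genes named for this difference show the shape plainly. LINC00261, a long non-coding RNA of endoderm, stood at 89.7, 98.5 and 96.7 CPM in low and at 92.4, 82.4 and 95.2 CPM in medium butyrate, with overlap. In high libraries it stood at 7.81 ± 0.347 CPM, and the second step was lower than the first by -3.45 on the log2 scale (adjusted p = 5.61e-16 in edgeR); 97.3% of its 100-base windows are shared with another annotated gene, so how its reads were assigned is uncertain. NR0B2, a nuclear receptor that restrains bile acid synthesis, stood at 151 ± 15.1 CPM in low, 152 ± 8.45 CPM in medium and 21.2 ± 0.389 CPM in high butyrate. LGI1 stood at 78.8 ± 1.87, 75.5 ± 1.09 and 7.28 ± 0.380 CPM at the same 3 doses. SERPINA10, a secreted inhibitor of clotting proteases, stood at 37.2 ± 0.970, 37.6 ± 0.765 and 6.75 ± 0.493 CPM.

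Among genes with the more upward second step, TXNIP had the smallest p, with a second step 2.56 above the first (adjusted p = 8.97e-12 in edgeR). Its relative ARRDC4, another arrestin of glucose uptake, stood at 10.2 ± 1.28 CPM in low, 11.4 ± 0.828 CPM in medium and 80.6 ± 2.21 CPM in high butyrate. TCN2, which carries vitamin B12, stood at 4.56 ± 0.217, 5.04 ± 0.987 and 47.4 ± 2.45 CPM. NDRG4 stood at 25.4, 26.9 and 25.7 CPM in low and at 29.4, 29.9 and 28.6 CPM in medium butyrate. Its doses did not overlap (log2 difference 0.17, unadjusted p = 0.0152, adjusted p = 1 in edgeR), and the next step was a rise of 2.00. SERPINB9, an inhibitor of granzyme B, stood at 27.2 ± 0.999, 28.8 ± 2.06 and 119 ± 5.32 CPM.

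EEF1A2, a translation elongation factor of muscle and nerve, had another shape. It stood at 71.3, 65.1 and 65.4 CPM in low and at 69.5, 68.4 and 67.4 CPM in medium butyrate, against 1.14 ± 0.120 CPM in control. The doses overlapped, with an interval from -0.17 to 0.22, and the gene fell by 0.98 to 34.7 ± 1.96 CPM in high butyrate. The second step was the lower one (adjusted p of the difference = 4.74e-05 in edgeR).

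**Figure D4:**
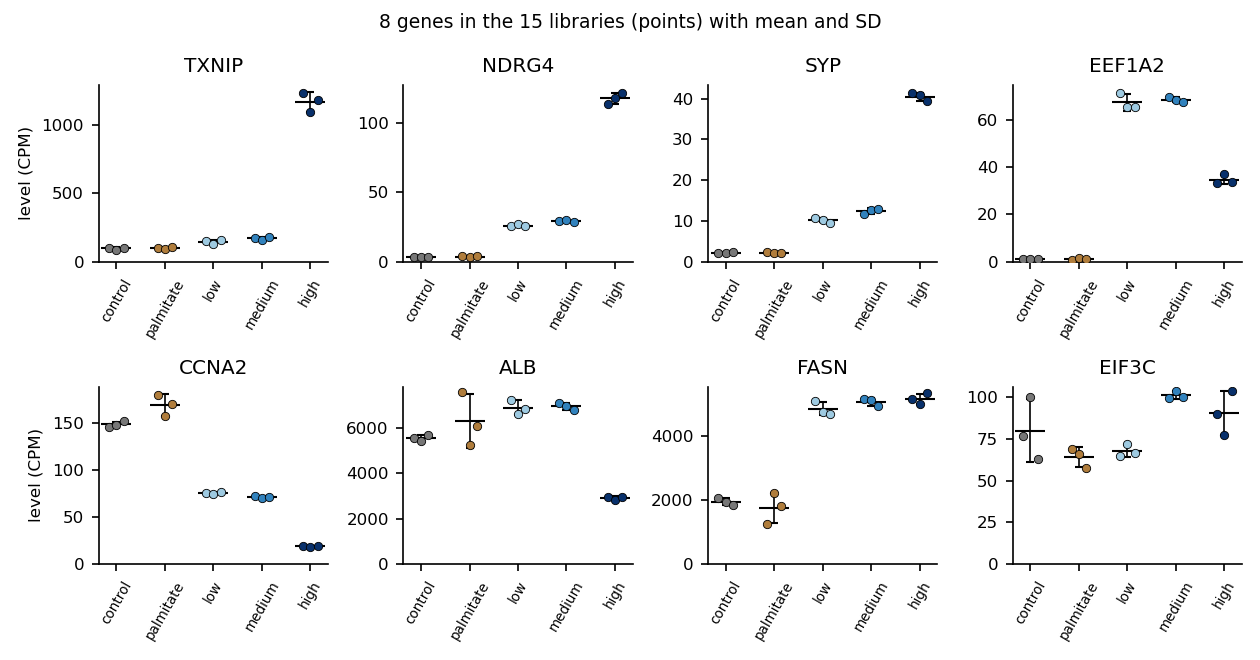
Level in CPM of 8 genes in each of the 15 libraries (points) with the mean and SD of 3 libraries, by group. TXNIP, NDRG4 and SYP are near level between low and medium butyrate and far higher in high butyrate, CCNA2 and ALB are near level and then lower, and EEF1A2 is at 67.3 and 68.4 CPM before 34.7 CPM. FASN is level over all 3 doses, and EIF3C spreads within control and high butyrate.

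To ask whether small dose differences went the way of the larger response, genes were chosen in high butyrate against control, which shares no library with low and medium. At 2-fold and an adjusted p under 0.05, 4613 genes (22.7%) were raised and 2599 (12.8%) lowered there. The raised genes had a median medium minus low difference of 0.09 on the log2 scale, with 67.2% of them higher in medium butyrate. The lowered genes had a median of -0.04, with 31.5% higher, and all 20309 genes a median of 0.00, with 51.9% higher. None of either set was called.

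Over a level of 2, where single genes are measured better, 79.3% of 1051 raised genes were higher in medium butyrate (median 0.06) and 24.1% of 1708 lowered genes (median -0.04). The level is a mean over all 15 libraries, so a gene raised strongly in high butyrate can pass it while scarce at both lower doses. Among raised genes the difference was graded by the size of the response. For genes raised over 8-fold in high butyrate (over 3 on the log2 scale, 184 genes) the median was 0.15. For those raised by 1 to 2 on that scale it was 0.05. Among lowered genes the median was -0.04 for a fall of 1 to 2 and -0.08 for 2 to 3. For the 40 genes lowered by more than 3 it was -0.07, so the grading did not continue there. For the 5257 genes within 0.5 of no response the median was 0.00.

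**Figure D5:**
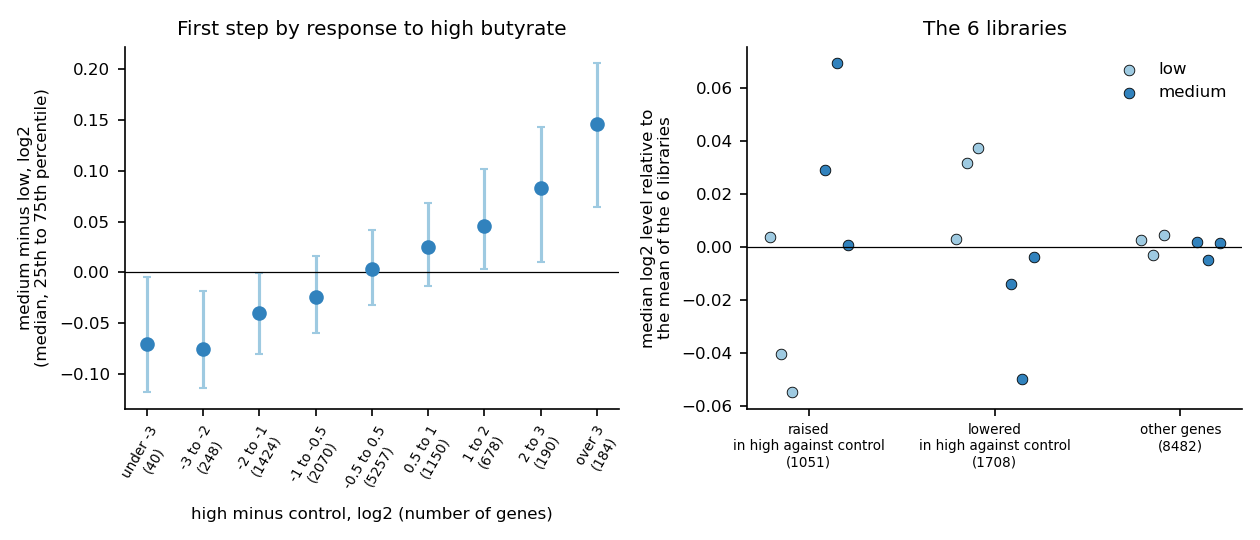
Left, medium minus low log2 difference (median and 25th to 75th percentile) of genes over a level of 2, by their high minus control log2 change, with the number of genes. Medians go from -0.07 at the lowest bin to 0.15 at the highest. Right, median log2 level of 3 gene sets in each of the 6 libraries relative to the mean of the 6. Raised genes overlap between the doses at low replicate 1 and medium replicate 3, and lowered genes do not overlap.

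By library, the raised genes had median levels of 0.00, -0.04 and -0.05 in low and 0.03, 0.07 and 0.00 in medium butyrate, relative to the mean of the 6. Low replicate 1 (0.0036) stood above medium replicate 3 (0.00069), so the doses overlapped slightly. The lowered genes stood at 0.00, 0.03 and 0.04 in low and -0.01, -0.05 and -0.0040 in medium libraries, without overlap. Low replicate 1 and medium replicate 3 were also the libraries with the most mitochondrial transcripts, 10.85% and 11.3% against 9.14% to 10.4% in the other 4; the part of this share in the medians was not tested. Without medium replicate 2, the median of the raised genes was 0.06 in place of 0.09 and that of the lowered genes -0.03.

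The same order shows in the genes nearest to a call. Of the 481 genes at an unadjusted p under 0.05, 364 (75.7%) differed between low and medium in the direction of high against control, compared with 60.7% of all genes. Of the 301 that were higher in medium butyrate 84.1% were so, against 62.5% of all genes higher there. Of the 180 that were lower it was 61.7%, against 58.8%.

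Of the 18824 genes not tested for low counts, 7 had no count in any low library and at least 3 counts in every medium library, and 3 had the reverse. With 3 counts taken as the limit that a count of 0 allows, for counting error only, a gene not seen in a low library could hold up to 0.0849 CPM at the lowest depth. This takes counts as independent, and the limit is higher where both mates of a read pair are counted.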

How the data were processed

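RNA of 15 HepG2 libraries was measured by sequencing of read pairs. Per the submitters' processing notes, tools included HISAT2, featureCounts, FastQC and DESeq2, with the build GRCh38 (hg38). Their versions, annotation and strand setting are not given in the sources used here. The deposited table gives raw read counts per gene, made by the authors, and in these most low counts are even numbers (67.9% to 71.2% of counts from 1 to 20 in the 6 libraries), so both mates of a pair appear to enter. It also gives FPKM values that the authors computed and deposited, used only as an alternative. The floor of 3 counts covers counting error only and takes counts as independent, so it is too low where both mates enter.

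Counts of all 15 libraries were fitted with edgeR 4.0.16 (R 4.3.3; filterByExpr by the 5 groups, TMM scaling, quasi-likelihood test), with Benjamini-Hochberg adjustment over 20309 genes and a threshold of 0.05. Standard errors and 95% intervals came from the same test. Contrasts were medium minus low, high minus medium, and the difference of these steps. Library shares were compared with exact permutation tests. Total counts of all libraries ran from 35349827 to 61086976.

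Genes named near a call are the 8 in each direction with the smallest unadjusted p, a level of at least 0 on the log2 CPM scale and no overlap of the 6 libraries. Up to 2 genes per list with the smallest p, a panel of genes and the 5 in each direction whose steps differed with the smallest p were added. The members, lists and panel were chosen with earlier results of these data known. Positions and transcripts are those of GENCODE 29. Genes were compared for shared 100-base windows of their longest transcripts, which 97.93% of tested genes had.

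Alternatives were DESeq2 1.42.0, other scalings and filters, limma 3.58.1 on log2(FPKM + 1) and log2(FPKM + 0.1), voom with quality weights, the replicate number as a block, fits of the 6 libraries alone, other thresholds and each library left out. DESeq2 on the 6 libraries and a fit without the palmitate group were chosen after seeing the data. Symbols missing from the table (2965 of the tested genes) are given by gene identifier. One immune marker and the sum that rests on it are not reported here, for a reason unrelated to their values.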

Additional observations from a re-analysis of the deposited data

Results flagged for a closer look

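The change over the second 0.5 mM step, from 1 to 1.5 mM, differed from that over the first, from 0.5 to 1 mM, for 6438 of 20309 genes, by edgeR's test of the difference between the steps. Of these, 2650 had the more upward second step and 3788 the more downward one. The medium libraries enter both steps, which the test takes into account, and each step rests on 3 libraries per dose.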

How the results depend on the processing

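The count of 0 genes between 1 and 0.5 mM held under both other scalings, DESeq2, the filter at 1 CPM, voom, 3 other thresholds and every left-out library (0 to 0 calls). Without a filter 7 genes were called, in the 6 libraries alone 1, and on FPKM with a pseudocount of 1 or of 0.1 also 1. DESeq2 on the 6 libraries, added after seeing the data, called 3, and the fit without the palmitate group, also added, called 0. Of the 10 distinct genes called in any of these fits, 9 share at least 20% of their 100-base windows with another gene, against 1370 of the 19889 tested genes with a value. Over all genes, deviations from the group mean correlated little between libraries of equal replicate number (0.02, 0.02 and 0.05). Low replicates 2 and 3 correlated best with their own number and low replicate 1 did not. By chi-square per gene, low replicate 3 was nearer to medium replicate 3 (7.52) than to medium replicates 1 and 2 (16.3 and 19.0). Low replicate 1 was nearest to medium replicate 1 (7.95) among medium libraries. Low replicate 2 was nearer to medium replicate 1 (7.07) than to medium replicate 2 (8.53). Whether equal numbers mark pairs is thus not settled. With the replicate block 0 genes were called, and 5 with the replicate block in the 6 libraries alone.

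The median half-width of 0.28 became 1.05 with no filter and 0.14 on FPKM with a pseudocount of 1, and the share of genes inside 1.5-fold went from 60.6% to 36.0% and 97.2%; the pseudocount shrinks changes of low genes. With a library left out the half-width ran from 0.33 to 0.34, the share from 55.8% to 56.5%, the genes whose steps differed from 5079 to 6097, and the medians of raised and lowered genes from 0.06 to 0.11 and from -0.05 to -0.03. The split of the 6438 genes, 2650 upward and 3788 downward, became 3064 and 3177 with library totals, 3714 and 3086 on FPKM + 0.1 and 4169 and 3056 on FPKM + 1; the cause was not tested. No called value changed sign, but 56 of the medians of gene lists did, over 19 alternatives. The 3 libraries per dose and low counts limit what can be seen under a level of 2.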
